A study of Equus caballus with 6 samples.

Results

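The genes described here are 6 horse chaperones of the HSP90 and HSP70 families: HSP90AA1, HSP90AB1 and HSP90B1, and HSPA1B, HSPA8 and HSPA9. They were taken by name, and their probes were found through the RefSeq transcript that the array files give for each probe. This gave 18 of 43603 probes, and 6 of the 829 genes that could be named in that way. HSP90AB1 had 6 probes, HSPA9 had 7, HSPA1B had 2, and HSP90AA1, HSP90B1 and HSPA8 had 1 each. Blood of 3 warmblood geldings was drawn before and after exercise, and the RNA of the leukocytes in its buffy coat (the pale layer that forms above the red cells when blood is spun) was hybridised to 1 array per sample. The horses are numbered 1, 2 and 4 and were 11, 7 and 15 years old per the sample labels, while the series description gives 9 to 17 years. No horse received any other treatment named in the labels, and the amount of exercise is not given there. A label of 60 min stands on each later sample, whereas the protocol speaks of sampling directly after the exercise, so the time of the second sample is not settled. The buffy coat is a mixture of cells, and fewer cells of a type cannot be told apart from less RNA per cell.

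HSP90 and HSP70 proteins bind other proteins while these fold, mature or recover from damage, and use ATP to do so. HSP70 proteins hold unfolded stretches of many proteins, whereas HSP90 proteins act later and on a narrower set, including steroid receptors and kinases. Each family has members in the cytosol, the endoplasmic reticulum and the mitochondria. Heat, oxidants and other stress release heat shock factor 1, which raises transcription of the inducible cytosolic members, while the reticulum and the mitochondria have stress programmes of their own. Leukocytes are known to make inducible HSP70 in response to heat, and exercise is a setting in which this has often been studied.

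All 18 chaperone probes were well above background on all 6 arrays, and no spot was saturated. Levels below are log2 processed signals relative to the 75th percentile of the array, so that 0 is the level of that percentile and 1 unit is a doubling. Levels of different probes are not compared, since probes differ in how strongly they bind. On the arrays as a whole, 64.1% to 69.4% of non-control spots were well above background, and the arrays correlated at 0.940 to 0.987 across probes. Of 37 blood cell markers, 25 could be measured, all well above background on all 6 arrays, among them the leukocyte genes CD44 and B2M, the neutrophil gene MMP9 and the T cell gene CD2, as well as the red cell gene HBB. The arrays of horses 1 and 2 before exercise lay on slide 2, and the other 4 arrays, both of horse 4 included, lay on slide 1.

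After exercise none of the 6 chaperone genes passed the test, and none differed by more than 1.20-fold in the mean. Taking the brightest probe of each gene, HSP90AB1, HSPA1B, HSPA8 and HSPA9 had mean changes above 0, and HSP90AA1 and HSP90B1 below 0. A mean above 0 was thus seen in 4 of 6 genes and 15 of 18 probes, beside 57.8% of named genes and 56.9% of all probes. Of these probes 6 belong to HSP90AB1 and 6 to HSPA9. Probes of 1 gene are not separate observations, here and in the other probe counts below. HSP90AB1 and HSPA8 were higher in all 3 horses, which is 2 of 6 genes, beside 18.7% of all named genes by their brightest probe. The HSPA8 step in horse 4 was only 0.02, and its sign depended on the processing, as given below. Of the 18 chaperone probes, 5 were higher in all 3 horses, beside 17.3% of all probes. No chaperone gene was lower in all 3 horses, beside 7.73% of named genes and 11.5% of all probes. Before and after values overlapped for all 6 genes, whereas 2.52% (higher) and 3.06% (lower) of named genes, and 3.51% and 3.8% of all probes, did not overlap. In limma, with a block for each horse, 0 of 29570 probes (0%) had an adjusted p under 0.05, and for the 18 chaperone probes it lay between 0.767 and 0.996. At an unadjusted p under 0.05, 1798 probes (6.08%; 6.24% of named genes) but 0 of the 18 chaperone probes were found. Without the block, limma also called 0 of 29570 probes, with 855 (2.89%) at an unadjusted p under 0.05. With horse 4 left out and the block kept limma called 69 probes, and with only its array before exercise left out, in a fit without the block, 595. Both sets held 0 of the 6 chaperone genes. The median change of the 6 genes was 0.13, beside 0.04 over all probes, and the median size of a change was 0.17 beside 0.19.

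**Figure D1:**
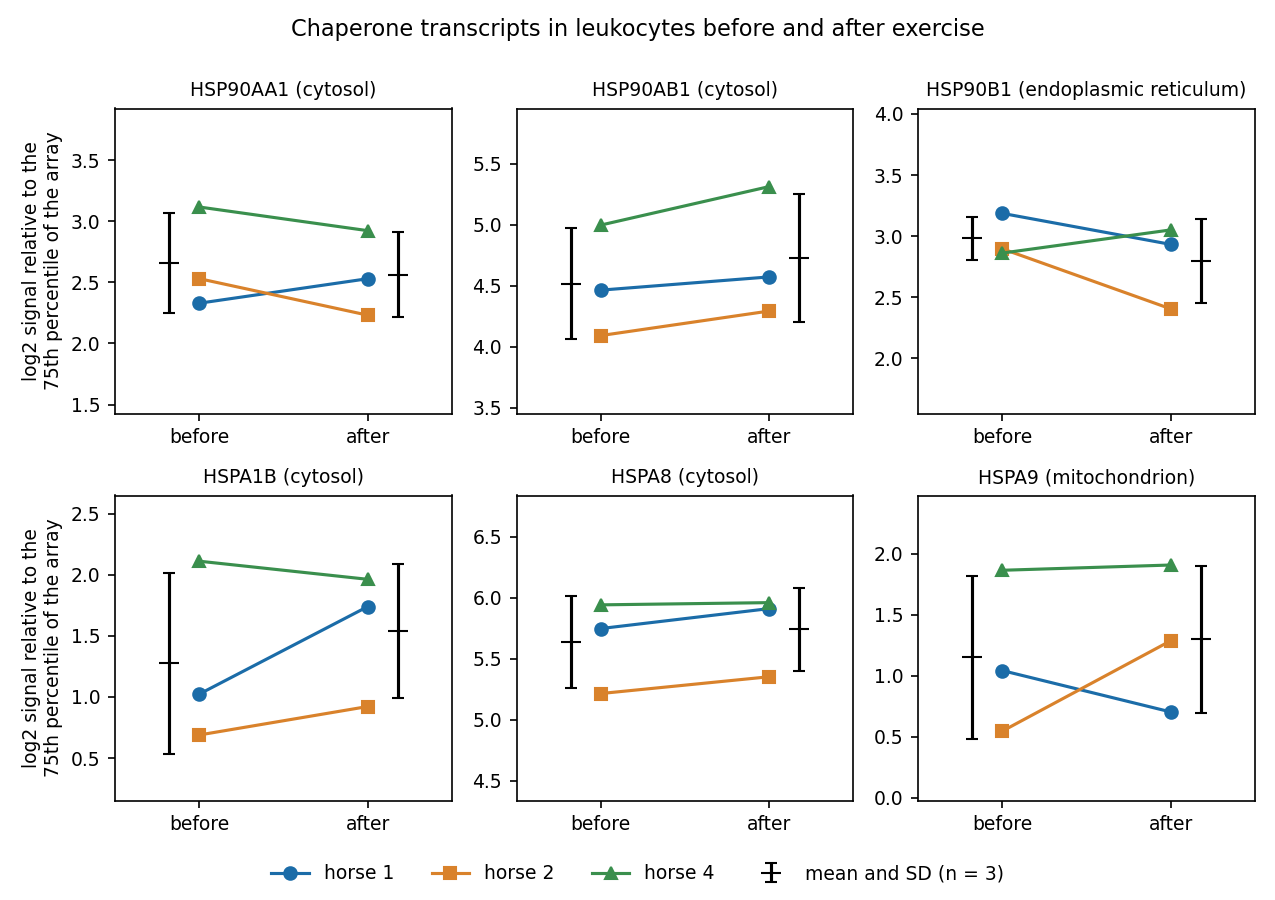
Log2 signal relative to the 75th percentile of the array (vertical axis, each panel spanning the same range) before and after exercise for the brightest probe of each chaperone gene, with 1 line per horse and the mean and SD of 3 horses in black. The lines of horse 4 lie at the top in every panel but that of HSP90B1, and the values before and after overlap in all 6 panels.

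Of the cytosolic HSP90 genes, HSP90AA1 encodes the stress-inducible form and HSP90AB1 the form that is made constantly. HSP90AA1 (probe A_69_P002106) stood at 2.33, 2.53 and 3.12 before exercise in horses 1, 2 and 4, and at 2.53, 2.23 and 2.92 after. It was thus higher only in horse 1, by 0.20, and differed by -0.30 and -0.19 in horses 2 and 4. Its mean change was -0.10 (SE 0.18, n = 3 horses; 95% interval -0.57 to 0.37), with an adjusted p of 0.884 in limma.

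HSP90AB1 by its brightest probe (A_69_P117840) stood at 4.47, 4.09 and 4.998 before exercise in horses 1, 2 and 4, and at 4.57, 4.29 and 5.31 after. All 3 horses were higher after exercise, by 0.11, 0.20 and 0.32, but each of these steps was smaller than the distances between the means of the horses, 4.19, 4.52 and 5.16. The mean change was 0.21 (SE 0.15, n = 3; 95% interval -0.19 to 0.61; limma adjusted p = 0.767). The 6 probes of this gene had mean changes from 0.11 to 0.21, all above 0. The 5 brighter ones followed each other closely over the 6 arrays (r from 0.988 to 0.999). They differed by -0.06 to 0.11 in horse 1, 0.08 to 0.20 in horse 2 and 0.31 to 0.32 in horse 4. The dimmest probe was less like them (r from 0.866 to 0.918) and had -0.12 in horse 4, against 0.24 and 0.30 in horses 1 and 2. With quantile normalization 5 of the 6 probes had a mean above 0, and that of the brightest was 0.09. The 5 brighter probes then differed by 0.09 to 0.12 in horse 4 and by -0.14 to 0.05 in horse 1. In horse 4 they had 0.24 to 0.30 with normexp background correction and 0.34 to 0.35 with median normalization.

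HSP90B1 encodes GRP94, the HSP90 of the endoplasmic reticulum, which helps to fold toll-like receptors and integrins. Its probe (A_69_P002056) stood at 3.19, 2.90 and 2.86 before exercise in horses 1, 2 and 4, and at 2.93, 2.40 and 3.05 after. Horses 1 and 2 were lower after exercise, by -0.25 and -0.49, and horse 4 was higher by 0.19. The mean change was -0.19 (SE 0.20, n = 3; 95% interval -0.71 to 0.34; limma adjusted p = 0.811). Without horse 2 it was -0.032, and without horse 4 it was -0.37.

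Among the cytosolic HSP70 genes, HSPA1B encodes the strongly stress-inducible form. Its brighter probe (A_69_P002406) stood at 1.02, 0.69 and 2.11 before exercise in horses 1, 2 and 4, and at 1.74, 0.92 and 1.96 after. Horse 1 showed the widest step, 0.72, horse 2 had 0.23 and horse 4 had -0.15. The mean change was 0.27 (SE 0.22, n = 3; 95% interval -0.32 to 0.86; limma adjusted p = 0.783), and with array weights it was 0.58. Its dimmer probe followed the brighter one (r = 0.962 over 6 arrays) with steps of 0.63, 0.76 and -0.59 and the same mean of 0.27 (SE 0.32; 95% interval -0.59 to 1.12). Both probes were therefore higher in horses 1 and 2 and lower in horse 4, an order shared by 8 of the 18 chaperone probes and 24.1% of all probes. Without horse 1 the mean of the brighter probe was 0.042, and without horse 4 it was 0.47. HSPA1B has near-identical gene copies in mammals, and how far these probes tell such copies apart was not tested.

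HSPA8 encodes HSC70, the constantly made HSP70 of the cytosol. Its probe (A_69_P000696) stood at 5.75, 5.21 and 5.94 before exercise in horses 1, 2 and 4, and at 5.91, 5.35 and 5.96 after. The steps of 0.16, 0.14 and 0.02 were small and all above 0. The mean change was 0.11 (SE 0.15, n = 3; 95% interval -0.29 to 0.50; limma adjusted p = 0.850). After quantile normalization, which makes the signal distributions of the arrays equal, the mean was -0.0044, with -0.23 in horse 4. Horse 4 had -0.0038 with normexp background correction and 0.05 with median normalization.

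HSPA9 encodes mortalin, the HSP70 of mitochondria, which draws imported proteins into the matrix. Its brightest probe (A_69_P003011) stood at 1.04, 0.55 and 1.86 before exercise in horses 1, 2 and 4, and at 0.70, 1.29 and 1.91 after. Horse 1 was lower by -0.34 and horse 2 higher by 0.74, while horse 4 differed by 0.04. The mean change was 0.15 (SE 0.26, n = 3; 95% interval -0.53 to 0.83; limma adjusted p = 0.878), and without horse 2 it was -0.15.

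The 7 probes of HSPA9 differed among themselves. The probe second in brightness had nearly flat values, 0.71, 0.81 and 1.17 before and 0.73, 0.75 and 1.19 after in horses 1, 2 and 4, with a mean change of -0.0048 (SE 0.15). The 5 dimmer probes formed a tight group of their own (r from 0.975 to 0.999 among them, 0.756 to 0.816 with the 2 brighter probes). They were higher by 0.28 to 0.46 in horse 1 and by 0.40 to 0.53 in horse 2, and differed by -0.68 to -0.64 in horse 4. Their means of 0.0074 to 0.07 thus combine values of opposite sign in single horses. With normexp background correction the 5 had -0.52 to -0.45 in horse 4, and with quantile normalization -0.61 to -0.57, beside 0.16 and -0.033 (normexp) or -0.013 and -0.045 (quantile) for the 2 brighter probes.

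**Figure D2:**
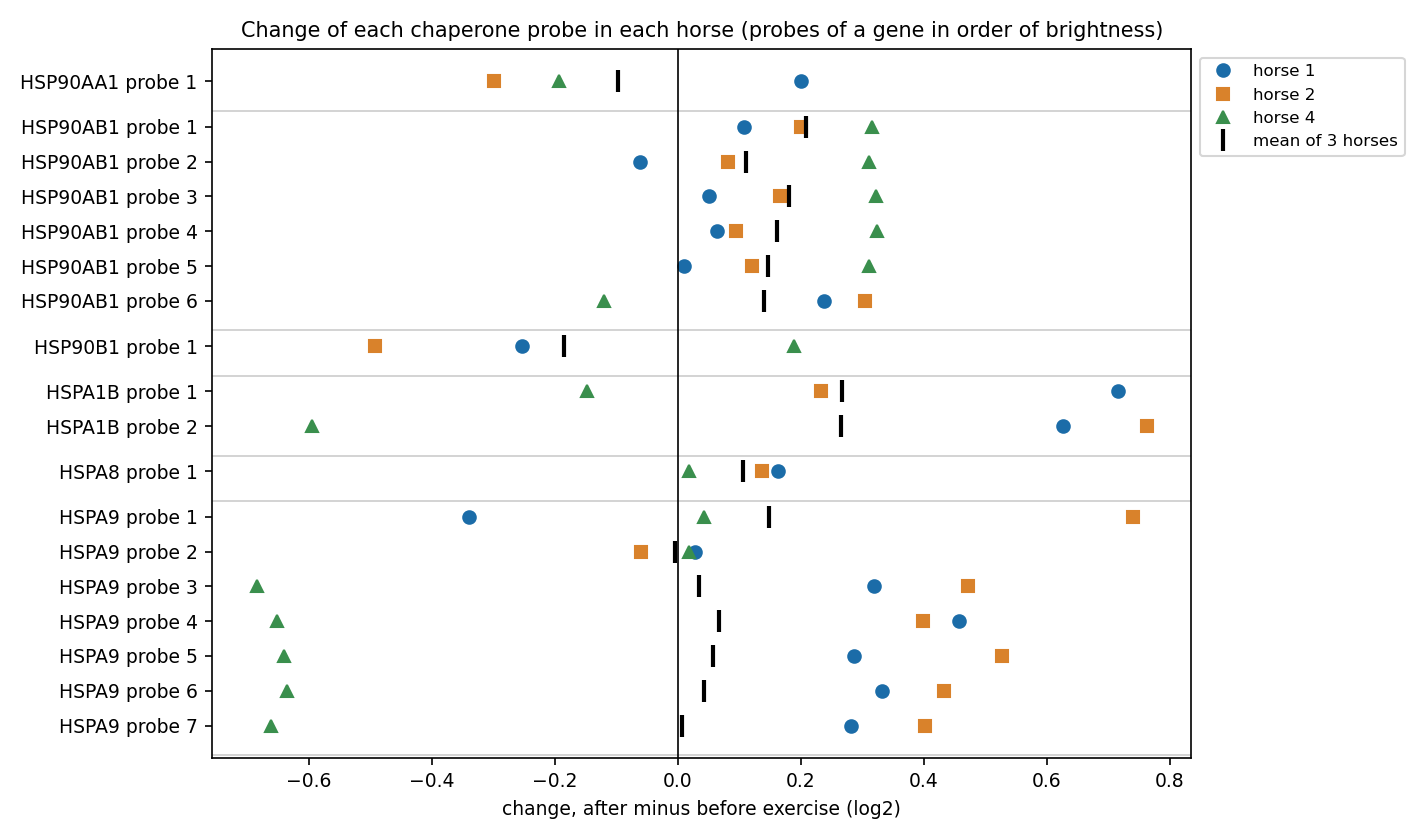
Change after minus before exercise on the log2 scale (horizontal axis) of each of the 18 chaperone probes in each horse, with the mean of 3 horses as a black bar; probes of a gene are ordered from bright to dim. The 5 dimmer HSPA9 probes lie at -0.68 to -0.64 in horse 4, where the 5 brighter HSP90AB1 probes lie at 0.31 to 0.32.

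In horse 4 the dimmest probe had a lower change than the brightest one in all 3 genes with several probes: -0.12 against 0.32 for HSP90AB1, -0.59 against -0.15 for HSPA1B and -0.66 against 0.04 for HSPA9. This was seen after the values were known and is a description. Over the 7338 probes between the lower quartile and the median of signal, where the dim HSPA1B and HSPA9 probes lie, the median change in horse 4 was -0.09, and over the 7338 brightest it was 0.12. The array of horse 4 after exercise had the lowest 75th percentile of the 6, a processed signal of 1124 against 1753 to 2536 on the others. The part of signal level in these probes' values was not tested.

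Only horse 4 had both of its arrays on 1 slide, and there the changes of the 6 genes need no comparison across slides. They were -0.19 for HSP90AA1, 0.32 for HSP90AB1, 0.19 for HSP90B1, -0.15 for HSPA1B, 0.02 for HSPA8 and 0.04 for HSPA9. HSP90B1 and HSPA1B thus had the opposite sign to their mean over 3 horses when the comparison was kept within a slide and an animal. On slide 1 alone, where horse 4 is the only sample before exercise and stands against 3 horses after it, HSP90AA1 had -0.56, HSP90AB1 -0.27, HSP90B1 -0.07, HSPA1B -0.57, HSPA8 -0.20 and HSPA9 -0.57. In that comparison the animal and the exercise cannot be told apart.

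The compartments were set against each other by the difference between their changes within each horse. The cytosolic genes, as the mean of HSP90AA1, HSP90AB1, HSPA1B and HSPA8, had 0.30, 0.07 and -0.0021 in horses 1, 2 and 4. The reticulum gene HSP90B1 was below this mean by similar amounts in horses 1 and 2, with cytosolic minus HSP90B1 at 0.55 and 0.56, and above it in horse 4 (-0.19). This contrast averaged 0.31 ± 0.43 (SD, n = 3), and 3 horses cannot give a p below 0.25 in the exact two-sided sign-flip permutation test used here (p = 0.50; adjusted p = 1 over the 3 contrasts). Cytosolic minus mitochondrial (HSPA9) changes were 0.64, -0.67 and -0.045, which average -0.027 ± 0.65 (SD, n = 3; exact permutation p = 0.75). HSP90B1 minus HSPA9 was 0.08 and 0.15 in horses 1 and 4 but -1.23 in horse 2, with a mean of -0.33 ± 0.78 (SD, n = 3; exact permutation p = 1). With the HSPA9 probe second in brightness, which had -0.06 in horse 2, the mean was -0.18. No contrast had the same sign in all 3 horses.

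**Figure D3:**
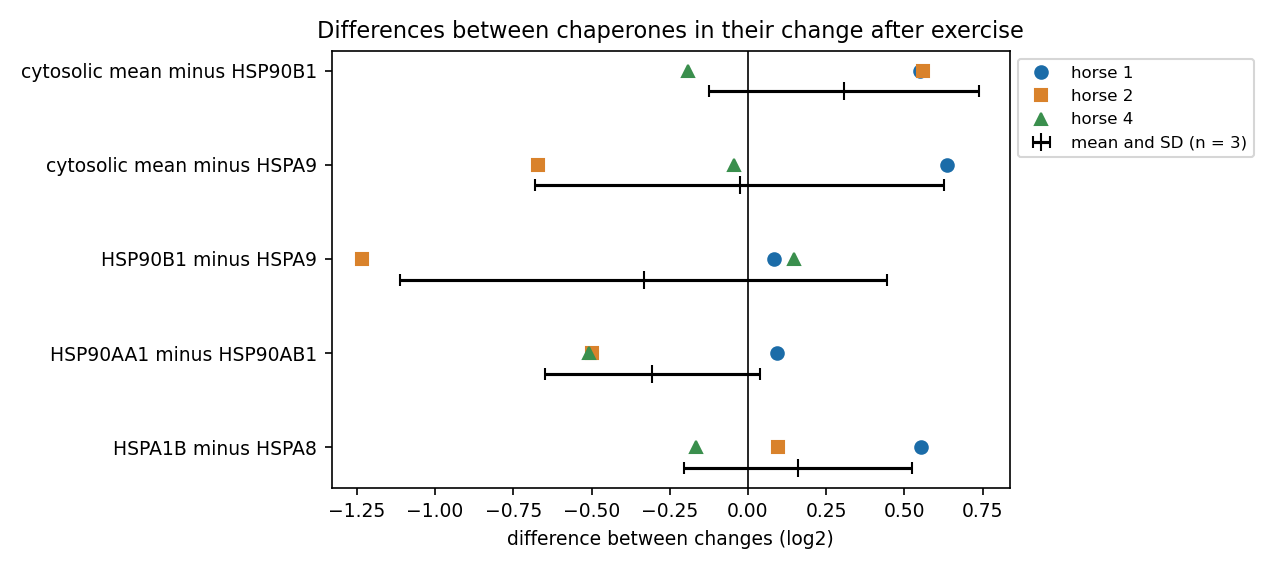
Differences between changes after exercise on the log2 scale (horizontal axis), with 1 point per horse and the mean with SD of 3 horses in black below the points. In all 5 contrasts the points of the horses lie on both sides of 0, and horse 2 lies at -1.23 for HSP90B1 minus HSPA9.

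Within each cytosolic pair, the inducible gene was set against the constantly made one. HSP90AA1 minus HSP90AB1 was 0.09 in horse 1 and -0.50 and -0.51 in horses 2 and 4, a mean of -0.31 ± 0.34 (SD, n = 3; exact permutation p = 0.50, adjusted p = 0.75 over 2 contrasts). HSPA1B minus HSPA8 was 0.55, 0.10 and -0.17 in horses 1, 2 and 4, a mean of 0.16 ± 0.36 (SD, n = 3; exact permutation p = 0.75). The inducible member of the HSP90 pair thus lay below its partner in 2 horses, and that of the HSP70 pair lay above in 2 horses, and neither contrast exceeded its spread. With quantile normalization HSPA1B lay above HSPA8 in all 3 horses, with a mean difference of 0.24 ± 0.26 (SD, n = 3; exact permutation p = 0.25).

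**Figure D4:**
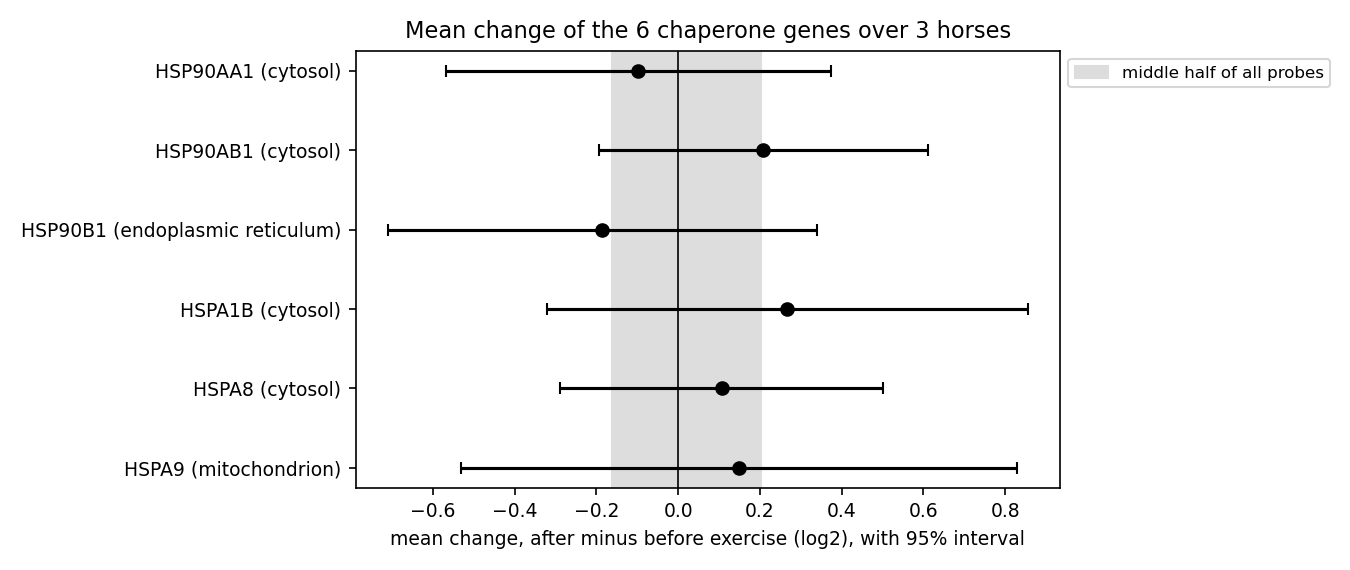
Mean change of each chaperone gene over 3 horses on the log2 scale (horizontal axis) with its 95% interval from limma with the horse as a block; the grey band runs between the quartiles of all probes, -0.16 to 0.20. All 6 intervals include 0, and that of HSPA1B ends at 0.86.

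The levels of the 6 genes also differed between animals. The distance between the highest and lowest horse mean was 0.64 for HSP90AA1, 0.96 for HSP90AB1, 0.41 for HSP90B1, 1.23 for HSPA1B, 0.67 for HSPA8 and 1.01 for HSPA9 on the log2 scale. HSPA1B, for example, averaged 1.38, 0.81 and 2.04 in horses 1, 2 and 4, and HSP90AB1 4.52, 4.19 and 5.16. Horse 4 held the top of this order for 5 genes, with both of its arrays above all 4 others, whereas HSP90B1 was highest in horse 1 (3.06, against 2.65 and 2.96 in horses 2 and 4). In probes, 17 of 18 had both horse 4 arrays on top, beside 16.6% of all probes, and the exception was that of HSP90B1. The after-exercise arrays of horses 1 and 2 shared slide 1 with horse 4. The count therefore already includes the order within that slide, which is no separate check. Both arrays of horse 2 were below the others in 3 genes and 8 probes, beside 13.9% of all probes. These counts were chosen after the values were seen. The HSPA8 step above the next array was narrow, and with quantile or median normalization HSPA8 no longer had it, which left 4 genes and 16 probes, beside 15.1% and 17.4% of all probes.

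In limma's F-test between horses, with exercise in the model, 4 of the 6 genes and 10 of the 18 probes had an unadjusted p under 0.05, beside 18.9% of named genes and 15.5% of all probes. HSP90AB1 had the smallest (unadjusted p = 0.0117), followed by HSPA1B, HSPA8 and HSPA9, while HSP90AA1 (0.0643) and HSP90B1 (0.308) had larger ones. After adjustment over all probes 0 of the 18 passed, beside 0.237% of all probes and 0.891% of named genes, with adjusted p from 0.219 for HSP90AB1 to 0.575 for HSP90B1. The differences between horses therefore did not pass the test with 2 arrays per animal.

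Markers of several blood cells differed between horses as well, and not all in the same order. The 2 red cell genes measured of 3 listed, HBB and HBA2, both globins, averaged 5.53, 1.27 and 7.67 before exercise in horses 1, 2 and 4. After exercise they averaged 6.44, 3.75 and 7.91. At both times horse 2 was lowest and horse 4 highest, as for HSP90AB1, HSPA1B and HSPA8. HSP90AA1 and HSP90B1 had this order only after exercise, and HSPA9 only before it. The T cell and general leukocyte averages given below also had this order at both times. Those of neutrophil, monocyte and NK cell genes had it only before exercise. The 3 of 6 neutrophil genes averaged 2.23, 1.47 and 2.96 before and 2.37, 2.42 and 2.75 after. The 3 of 5 T cell genes averaged -1.06, -1.71 and -0.18 before and -0.92, -1.04 and -0.65 after. The average of the 3 of 5 B cell genes was lowest in horse 4, at -2.58 before and -2.43 after, against -2.32 to -1.97 on the other 4 arrays. Single B cell genes did not keep this order. After exercise FCER2 had -0.14 in horse 4 and -0.26 in horse 2. PAX5 had -3.57 in horse 4 and -3.58 in horse 1, and TNFRSF13C had -3.58 and -3.61. The 3 of 5 platelet genes averaged 1.91, 0.24 and 1.75 before and 2.01, 0.43 and 1.86 after. The 4 of 4 monocyte genes averaged 1.27, 0.81 and 1.49 before and 1.85, 1.09 and 1.46 after. For the 4 of 4 NK cell genes this was 1.51, 1.17 and 2.23 before and 1.92, 1.58 and 1.91 after. For the 3 of 5 general leukocyte genes it was 3.68, 3.42 and 4.17 before and 3.99, 3.96 and 4.16 after. The part of cell composition in the chaperone values was not tested.

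**Figure D5:**
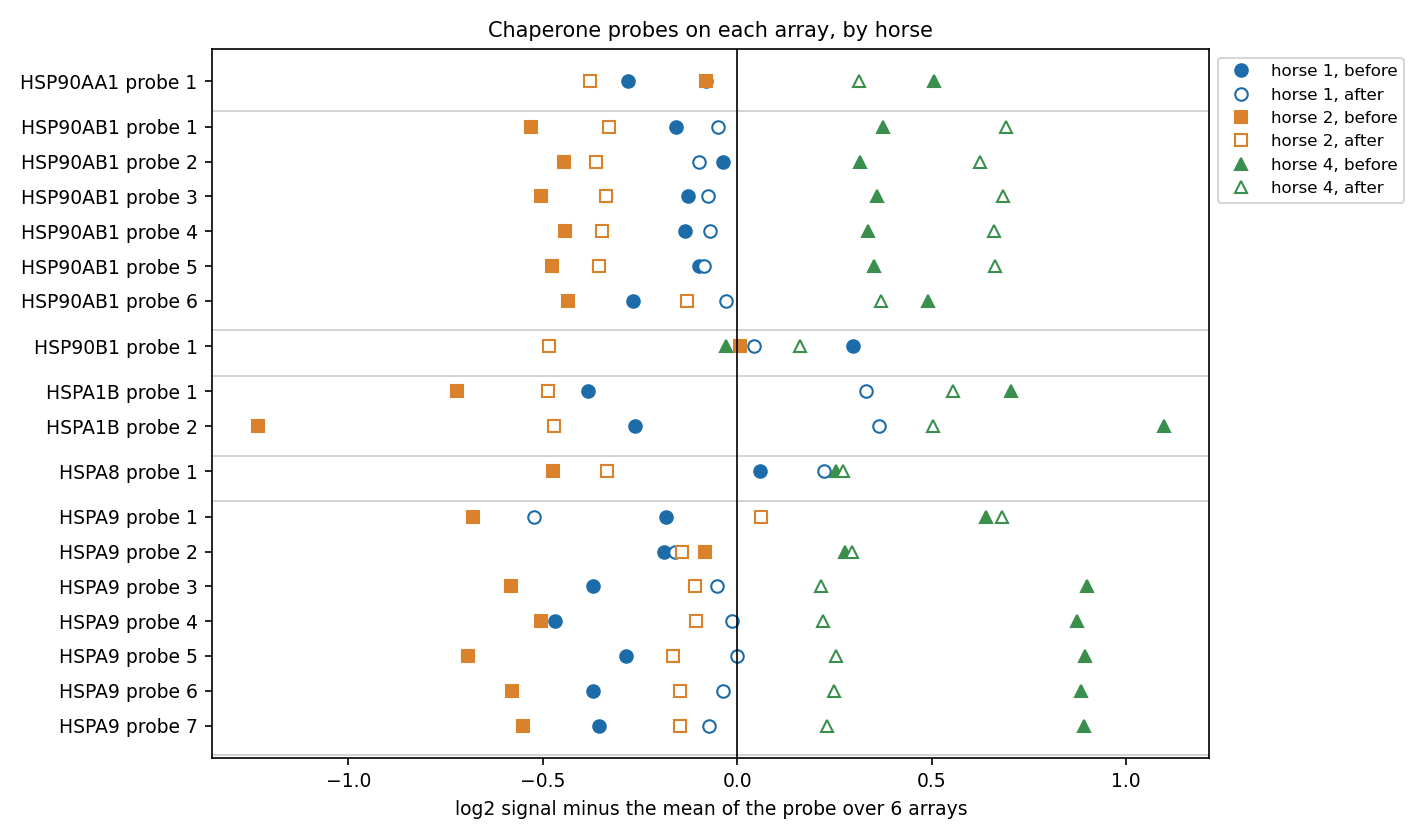
Log2 signal of each of the 18 chaperone probes on each array minus the mean of that probe over the 6 arrays (horizontal axis), with colours and symbols for horses, filled before and open after exercise. The triangles of horse 4 lie to the right of all other points in 17 probes, and in the HSP90B1 probe they lie within the range of the others.

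Over the 6 arrays r between the cytosolic genes and HSPA9 ran from 0.56 (HSPA8 with HSPA9) to 0.90, and r of HSP90B1 with the others was lower. HSPA1B correlated at 0.90 with both HSP90AB1 and HSPA8, and HSP90AB1 at 0.85 with HSPA9. HSP90B1 had r of 0.52 with HSPA8, 0.34 with HSP90AB1 and -0.025 with HSPA9. These values describe 6 arrays that come in pairs from 3 animals. Among 550 other named genes, the closest to HSP90AB1 was COTL1, an actin-binding protein (r = 0.993), then CYB5A, a cytochrome b5 (0.985). RBM8A, a part of the exon junction complex, was the closest to HSPA1B (0.992), and the serotonin transporter gene SLC6A4 was among the 2 closest to HSPA8 (0.993). HSP90AA1 was closest to the translation factor gene EIF4G3 (0.946) and TRMT12 (0.943), HSP90B1 to ARID5B (0.965) and SERPINF1 (0.943), and HSPA9 to ZNF518B (0.961) and TLR9 (0.955). After quantile normalization r was 0.834 for COTL1 and 0.870 for SLC6A4, and with normexp correction it was 0.811 for SERPINF1, which was well above background on 5 arrays.

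Few other genes of the folding machinery could be named on the array. Of 54 co-chaperones and other heat shock genes listed 3 were measured, of 31 folding genes of the endoplasmic reticulum 2, and of 13 mitochondrial folding genes and 4 heat shock factor genes 0. Of clients, 5 of 30 listed for cytosolic HSP90 and 11 of 24 listed for HSP90B1 were measured. Over the 21 genes, 0 passed the limma test, 0 had an unadjusted p under 0.05, and 13 had a mean change above 0, beside 56.9% of all probes. Their median change was 0.04, as over all probes.

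Of the co-chaperones, PTGES3, which encodes the HSP90 co-chaperone p23, had -0.19, 0.18 and 0.29 in horses 1, 2 and 4 and a mean of 0.10 (SE 0.17). The ubiquitin gene UBB, which heat shock induces in many cells, had 0.39, 0.92 and -0.047 and a mean of 0.42 (SE 0.24; limma adjusted p = 0.753). CRYAA, a small heat shock protein of the lens, exceeded the background clearly on only 4 arrays (mean -0.20, SE 0.67). UBB thus had the same order of signs as both HSPA1B probes, higher in horses 1 and 2 and lower in horse 4.

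In the endoplasmic reticulum, MANF, a stress-responsive factor of that compartment, was higher in all 3 horses, by 0.27, 0.48 and 0.14 (mean 0.30, SE 0.16; limma adjusted p = 0.753). It was 1 of 2 measured genes of its list, and 18.7% of named genes were higher in all 3 horses. PPIB, a proline isomerase, had 0.39, -0.04 and 0.51 (mean 0.29, SE 0.18). Both had means above 0, where HSP90B1 of the same compartment had -0.19.

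Among clients of cytosolic HSP90, NR3C1, the glucocorticoid receptor, had a mean change of -0.12 (SE 0.17). The interferon-induced kinase gene EIF2AK2 had -0.18 (SE 0.19). The 5 clients had a median of -0.024. Among clients of HSP90B1, TLR9 was higher in all 3 horses, by 0.11, 0.44 and 0.09 (mean 0.21, SE 0.16). TLR6 was lower in all 3, by -0.12, -0.11 and -0.29 (mean -0.18, SE 0.15). Each was 1 of 11 measured clients, beside 18.7% of named genes higher and 7.73% lower in all 3 horses. The growth factor gene IGF2 had 0.36 (SE 0.31). The 11 clients had a median of 0.03, and in limma the adjusted p of these genes lay between 0.771 and 0.985.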

How the data were processed

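Each of the 6 files is the scanner output of 1-colour Agilent horse arrays, and per the file headers the authors extracted the spots with Agilent Feature Extraction 10.10.1.1. Per the labels' protocols, 6 ml of blood was spun at 3000 rpm for 10 min at 4 °C to obtain the buffy coat. The deposited intensity used here is the processed signal, which is background-subtracted and not normalized between arrays. The 1417 control spots and spots marked as non-uniform or population outliers were left out, log2 signals were set against the 75th percentile of each array, and spots of a probe were averaged. Of 43603 probes, 29571 were well above background on at least 3 of 6 arrays, and 29570 could be tested. Such a filter leaves no bound on probes that failed it, and no chaperone probe did.

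The test was limma 3.58.1 in R 4.3.3 with the horse as a block, over all tested probes, with Benjamini-Hochberg adjustment and a threshold of 0.05. The horse number pairs the samples because the same animals were sampled before and after exercise, and deviations of same-numbered arrays from their group means correlated at 0.362, 0.400 and 0.234 in horses 1, 2 and 4. Each gene is given by the brightest of its kept probes. Errors after ± are SD over horses, and SE is that of limma. Contrasts between genes used exact two-sided sign-flip tests over horses. The precision is limited by the number of arrays, 3 per group. The procedure was tested on simulated data.

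Genes were named through RefSeq transcripts in the files. The 6 genes are all named, as are, for each of 6 lists of related genes, the 3 measured genes with the smallest p, and the 2 named genes most correlated with each chaperone, except that 3 genes which these rules select are not reported here. Members and lists were chosen with earlier results of these data known. Alternatives covered background correction, normalization, filters, the block, the slide, array weights, variance model, the choice of probe and leaving out each horse (with the block) or array (without it).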

Additional observations from a re-analysis of the deposited data

How the results depend on the processing

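None of the 6 chaperone genes passed the limma threshold after exercise under any alternative that was run. The smallest adjusted p was 0.0786, for HSPA1B in limma with array weights. In that fit 10268 probes had an unadjusted p under 0.05, against 1798 in the main fit, and 0 probes were called. Without array weights the adjusted p of HSPA1B in the main limma fit was 0.783. Without the replicate block the mean changes were the same by construction (0.21 for HSP90AB1, 0.27 for HSPA1B) and every adjusted p of the chaperones was 0.999, and the pairing changed no call. Directions differed with slide in the model. Slide 2 holds only samples before exercise, so with slide as a block the change comes from slide 1. There the array of horse 4 before exercise stands against the 3 arrays after exercise, and the animal and the exercise cannot be told apart. With slide as a block, and identically on slide 1 alone, the changes were -0.27 for HSP90AB1, -0.57 for HSPA1B, -0.20 for HSPA8, -0.57 for HSPA9, -0.029 for UBB, 1.16 for CRYAA, -0.050 for MANF, 0.48 for EIF2AK2, -0.43 for TLR9, 0.080 for TLR6 and -0.62 for IGF2. In horses 1 and 2 slide and exercise coincide, so with the replicate block and slide together the change comes from horse 4 alone. The values are therefore its own changes and no estimate over 3 horses. They were 0.19 for HSP90B1, -0.15 for HSPA1B, -0.047 for UBB and 1.76 for CRYAA. For EIF2AK2 the value was 0.17, for NR3C1 0.023 and for IGF2 -0.43. Any call from that fit also rests on the change in horse 4. Over all probes limma called 131 with slide as a block, 116 with the replicate block and slide, and 122 on slide 1 alone, against 0. Quantile normalization gave -0.0044 for HSPA8, and normexp correction gave 0.015 for CRYAA. Array weights gave 0.092 for HSP90AA1, -0.13 for HSPA9 and -0.095 for PTGES3. The probe second in brightness gave -0.0048 for HSPA9. The difference of cytosolic minus HSPA9 changes was 0.10 with that probe and 0.058 with the mean of all probes. Between horses 70 probes were called, against 1 with quantile normalization, 2 without the filter on dim probes and 1 with marked spots kept.

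Horses were left out with the block kept, and single arrays without the block, so that differences between horses enter the values without 1 array. Leaving out 1 array or horse gave from 0 to 595 probes called after exercise (595 without the array of horse 4 before exercise, 69 without horse 4, 0 otherwise), and from 0 to 456 between horses (456 without the array of horse 4 after exercise, 29 without that of horse 2 before it, 1 without that of horse 4 before it, and 0 without horse 1 or either of its arrays). It gave changes from -0.28 to 0.13 for HSP90AA1, -0.085 to 0.45 for HSP90AB1, -0.37 to 0.010 for HSP90B1, -0.026 to 0.69 for HSPA1B, -0.10 to 0.30 for HSPA8 and -0.16 to 0.50 for HSPA9. Among the other genes the ranges were -1.17 to 0.41 for CRYAA, -0.23 to 0.0024 for NR3C1, -0.071 to 0.24 for PTGES3, -0.51 to 0.017 for EIF2AK2, -0.47 to 0.086 for TLR6 and -0.047 to 0.54 for TLR9. The contrasts ranged from -0.36 to 0.30 for cytosolic minus HSPA9, -0.57 to 0.12 for HSP90B1 minus HSPA9 and -0.036 to 0.32 for HSPA1B minus HSPA8. With 3 horses, the 95% intervals of the 6 chaperone genes reached from -0.71 to 0.86. With this few animals, 0 calls do not show that the genes were unchanged. All 18 chaperone probes passed the filter on background, and the part of signal level in their changes was not tested.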
